A study of Mus musculus with 79 samples.

Results

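The comparison of socially defeated with undisturbed mice after ketamine in the medial prefrontal cortex (mPFC) was described in depth. Its members were the 19 libraries of ketamine-treated mPFC out of 79 libraries in the series, chosen by the region, group and treatment in their labels, 9 from CSDS mice and 10 from CTRL mice. All animals were wild-type (WT) male CD-1 (ICR) mice aged 9 to 10 weeks, an outbred stock in which individuals are not genetically identical. They lived in groups of 4. CSDS mice went through a modified chronic social defeat stress for 21 days, in which they went back to their own cage mates after each encounter with an aggressor, and CTRL mice stayed with their group. Both groups here carried the same treatment, 1 intraperitoneal injection of (R,S)-ketamine at 10 mg/kg, and tissue was taken 7 days later. Neither group of this comparison is untreated, so the contrast is a stress effect in the presence of ketamine. The mPFC was punched from frozen slices, which samples all cell types of the punch and its borders, and each library came from 1 mouse. For 1 further ketamine-treated CSDS mouse only vHipp was analysed, and the social rank of the animals was not analysed here.

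The mPFC is a frontal cortical area whose layered excitatory pyramidal neurons and local inhibitory interneurons take part in the control of emotion, social behavior and stress hormones. Excitatory synapses are built from presynaptic release machinery, adhesion molecules that span the cleft, and postsynaptic scaffolds that hold glutamate receptors. Ketamine blocks one class of these, the NMDA receptor, and glutamate release, AMPA receptors, BDNF signaling through its receptor TrkB and the kinase mTOR are the parts of the synapse most often linked to its lasting actions. The members of these systems, other pathways of brain tissue and markers of its cell types were therefore followed in 24 pathway lists and 16 cell type lists.

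Total counts lay between 15498349 and 21202803 in CSDS libraries and between 16208351 and 34135805 in CTRL libraries, and no library was a copy of another. Expression is given as CPM, the counts scaled to a common library size, and log2 fold changes (LFC) are CSDS minus CTRL, so that a positive LFC is higher in CSDS mice. Each LFC is given with its standard error (SE) and an unadjusted p, which sets the difference against the spread between mice. The study exposed whole social groups of 4 mice to defeat or none, so mice of the same group are not independent. The labels do not name these groups and the main fit has no term for them, so each p treats mice as independent. Slc17a7, the vesicular glutamate transporter of cortical excitatory neurons, was abundant. It had 1352, 1642 and 1761 CPM in CSDS mice and 1359, 1592 and 1761 CPM in CTRL mice (lowest, median and highest). Drd1, a dopamine receptor abundant in the neighboring striatum, had 8.67 and 11.1 CPM in the median mouse of each group. The 11 genes of the striatal marker list summed to a median of 208 CPM in CSDS and 211 CPM in CTRL mice. Drd1 alone therefore does not measure striatal tissue in the punches. 4 libraries stood apart and are named wherever a result rests on them. CSDS mouse 1 was low in long genes, as described below. CTRL mouse 26 was high in several genes of structures around the cortex, and CTRL mice 31 and 34 had 10.1 and 24.3 CPM of Ttr, the transthyretin made by choroid plexus, against at most 1.27 CPM in the other 17 libraries.

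No gene passed the adjusted threshold of 0.05 (edgeR quasi-likelihood test with Benjamini-Hochberg adjustment; 0 of 28993 genes tested, 0.0%), and the smallest adjusted p was 0.830. At an unadjusted p under 0.05, 1681 genes passed, or 5.8% of those tested. Of these, 702 genes (2.42%) were higher and 979 (3.38%) lower in CSDS mice, so each list below is read against these shares. DESeq2 gave 0 genes after adjustment and 1316 at an unadjusted p under 0.05, and 2 after adjustment, Nexmif and Gh, when it also held the 5 sets of mouse numbers. Everything that follows describes sizes, directions and counts at the unadjusted threshold. The counts per list are small, and single libraries move most of them in either direction, so their range with 1 library left out is given for the main lists. In bulk tissue, fewer cells of a type and less RNA per cell cannot be told apart.

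Across expressed genes, the sign of the difference followed both exon length and GC content, each split into 5 bins. Among the 15691 genes with a mean of at least 1 CPM over the mPFC libraries, 445 were higher and 445 lower (2.84% each). Whatever their p, 8663 of these 15691 genes had a positive LFC, as did 14654 of all 28993 tested. The sign counts of the lists below are read against these. In the bin with the shortest exons (57 to 2140 bases) the median LFC was 0.068, with 160 genes higher and 36 lower. In the bin with the longest exons (7417 to 123179 bases) it was -0.046, with 17 higher and 236 lower. The 3 bins between them fell in order, at 0.04, 0.019 and -0.0068. Each library was given a length index, the median log2 deviation of the longest bin minus that of the shortest, in which a negative value means fewer reads on long genes. Mouse 1 had an index of -0.46, while the other 8 CSDS libraries lay between -0.11 and 0.13 and the CTRL libraries between -0.088 and 0.17. The means, -0.06 ± 0.17 in CSDS (SD, n = 9) and 0.038 ± 0.072 in CTRL (SD, n = 10), did not pass an exact permutation test (two-sided p = 0.0807, and 0.186 without mouse 1). Without mouse 1 the order of the bins was the same, from 0.031 in the shortest to -0.028 in the longest, and 45 short genes were higher and 95 long genes lower. The synaptic, channel, chromatin, respiratory chain and ribosomal lists are given below with 2 further values, the median LFC without mouse 1 and the median LFC after an offset that sets the length bins of all libraries level.

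A trend of similar size ran along GC content, the share of G and C bases in a gene's annotated transcripts. In the bin of lowest GC content (27.5 to 44.6%) the median LFC was -0.047, with 31 genes higher and 194 lower, and in the bin of highest GC content (55.6 to 75.9%) it was 0.051, with most of the genes at the threshold higher and 23 lower. Without mouse 1 these medians were -0.03 and 0.023. The length offset left -0.041 in the lowest bin, with 25 higher and 161 lower, and 0.028 in the highest, with 72 higher and 22 lower. No list value below is adjusted for GC content, and its part in them was not tested.

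**Figure D1:**
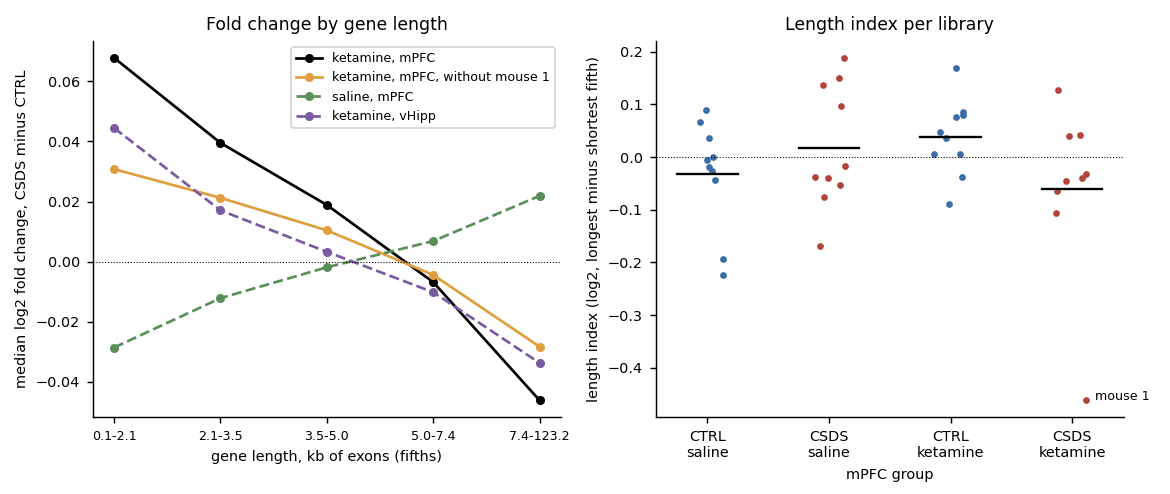
Left, median log2 fold change (CSDS minus CTRL) in 5 bins of gene length for 4 comparisons. Right, length index of each mPFC library by group, with points for mice and black lines for group means. Ketamine-treated mPFC slopes down from 0.068 in the shortest bin to -0.046 in the longest, saline-treated mPFC slopes up, and mouse 1 lies at -0.46, below every other library.

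Nearly all synaptic adhesion molecules lay below 0. Of 40 tested members, 0 were higher and 5 lower at the unadjusted threshold, and 38 of 40 had a negative LFC. Summed over the list, CSDS libraries held between 6167 and 8066 CPM with a median of 7257, and CTRL libraries between 7195 and 8295 with a median of 7635. The ranges overlapped, and mouse 1 lay lowest. The 5 lower members were Adgrl3, a latrophilin that binds teneurins and FLRT proteins across the cleft, the neural cell adhesion molecule Ncam2, the teneurin Tenm1, the contactin Cntn1 and the neurexin Nrxn3. Ncam2 had 46.8, 108.8 and 142.7 CPM in CSDS mice and 87.6, 135.1 and 183 CPM in CTRL mice, with an LFC of -0.34 ± 0.14 (SE; p = 0.0221). Tenm1 had 22.6, 47.4 and 70.8 CPM in CSDS mice and 41.0, 61.9 and 73.9 CPM in CTRL mice, with an LFC of -0.34 ± 0.16 (SE; p = 0.0375). For both genes the lowest CSDS library was mouse 1 and the groups overlapped widely. The LFC of Adgrl3 was -0.20 ± 0.083 (SE; p = 0.0201), that of Cntn1 -0.18 (p = 0.0376) and that of Nrxn3 -0.15 (p = 0.0376). Over all genes tested the median LFC was 0.0021, while the list's median LFC was -0.093, -0.07 without mouse 1 and -0.057 with the length offset. With 1 library left out, the number lower lay between 0, without mouse 1, and 10, without CSDS mouse 11. It was 2 without CSDS mouse 6 or CTRL mice 25, 31 or 34, 3 without CTRL mouse 40, 8 or 9 without CSDS mice 12 or 16 or CTRL mice 23 or 26, and 0 without CTRL mice 31 and 34 together. With the offset, 4 were lower and 1 higher. The members are long, with a median of 9209.5 bases of exon, and the longest exon bin as a whole had a median LFC of -0.046.

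On the presynaptic side, of 23 tested members, 0 were higher and 4 lower. The lower genes were Syn3, a synapsin that tethers vesicles, the active zone organizers Erc2 and Bsn, and Pclo, the partner of Bsn (LFC -0.24, p = 0.049). Syn3 (chromosome 10, 86055125 to 86498896 of GRCm38) had 11.3, 14.5 and 17.3 CPM in CSDS mice and 14.8, 18.2 and 18.6 CPM in CTRL mice. 5 of the 9 CSDS libraries lay under the lowest CTRL library, mouse 26, and the other 4 lay within the CTRL range. Its LFC was -0.26 ± 0.077 (SE; p = 0.00183), -0.22 without mouse 1 and -0.22 with the length offset. Bsn had an LFC of -0.23 ± 0.098 (SE; p = 0.0256) and Erc2 of -0.14 ± 0.059 (SE; p = 0.0194), and without mouse 1 the p of Bsn was 0.0673. Rab3c, a small GTPase of synaptic vesicles outside this list (chromosome 13, 110054187 to 110280996 of GRCm38), was among the 20 genes of smallest p. It had 257, 390.4 and 453 CPM in CSDS mice and 408, 467 and 609 CPM in CTRL mice, and 6 of the 9 CSDS libraries lay under the lowest CTRL library. Its LFC was -0.38 ± 0.11 (SE; p = 0.00086), with an exact permutation p of 0.00106. Over the release list as a whole the list's median LFC was -0.031, -0.0068 without mouse 1 and -0.017 with the length offset, and 7 of 23 members had a positive LFC. The number lower was 2 without mouse 1, 2 with the offset, 2 without mouse 6 or 31 and 1 without CTRL mice 31 and 34 together.

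On the postsynaptic side, of 24 tested members, 0 were higher and 2 lower. Both lower genes bind glutamate receptor complexes: Lrrc7 encodes densin, a scaffold of the postsynaptic density, and Dlg2 encodes PSD-93. Lrrc7 had 64.7, 101.1 and 122.5 CPM in CSDS mice and 95.96, 114.2 and 139.7 CPM in CTRL mice, and its LFC was -0.28 ± 0.11 (SE; p = 0.0129). Mouse 1 was lowest, 3 further CSDS libraries lay under every CTRL library, and the other 5 overlapped with them. Dlg2 had an LFC of -0.11 ± 0.051 (SE; p = 0.0419), which went to -0.021 with the length offset. The list's median LFC was -0.039, -0.055 without mouse 1 and -0.0091 with the length offset. With the offset 1 member was higher and 1 lower. With 1 library left out, 1 was lower without mice 1, 6, 20, 21 or 31, and 4 without mice 11, 12, 16 or 26.

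Among glutamate receptors, the NMDA receptor itself, the target of ketamine, had 1 subunit on each side. Grin2b, the subunit GluN2B, had 436, 602 and 775 CPM in CSDS mice and 569, 699 and 842 CPM in CTRL mice. Grin2c, the subunit GluN2C that astrocytes and some interneurons use, had 52.2, 57.3 and 80.8 CPM in CSDS mice and 45.6, 50.5 and 70.0 CPM in CTRL mice. The groups overlapped for both. The LFC was -0.21 ± 0.092 (SE; p = 0.029) for Grin2b and 0.21 ± 0.091 (SE; p = 0.0225) for Grin2c, and neither passed the unadjusted threshold without mouse 1 (p = 0.0745 and 0.0931). The other 5 subunits did not pass, and the list median was 0.0071, 0.0027 without mouse 1 and 0.044 with the length offset. Of 9 AMPA and kainate receptor subunits tested, 0 were higher and 1 lower. That gene was Gria2, the subunit that makes AMPA receptors impermeable to calcium, with an LFC of -0.20 ± 0.088 (SE; p = 0.0277) and a p of 0.0765 without mouse 1. 7 of the 9 subunits had a negative LFC, and the list median was -0.091, -0.08 without mouse 1 and -0.066 with the length offset. When 1 library was omitted, 0 to 3 of them were lower, 0 without mice 1, 25 or 34 and 3 without mouse 21.

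Of 7 metabotropic glutamate receptors tested, none was higher (1 was without mouse 11 or 21), and Grm5, a receptor that couples to calcium release, was lower. Grm5 (chromosome 7, 87584168 to 88134907) had 135.5, 222 and 289 CPM in CSDS mice and 219.5, 253 and 309 CPM in CTRL mice. 4 CSDS libraries, led by mouse 1, lay under every CTRL library, and the highest CSDS library reached into the upper CTRL values. Its LFC was -0.26 ± 0.10 (SE; p = 0.0152). It still passed without mouse 1 (p = 0.0417) and with the length offset (p = 0.00938). The list median was -0.11, -0.066 without mouse 1 and -0.14 with the length offset.

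Receptors for GABA, the main inhibitory transmitter, gave a median LFC of -0.074, -0.063 without mouse 1 and -0.071 with the length offset. Of the 14 subunits, 13 were negative and none of these passed the unadjusted threshold with all 19 libraries. With 1 left out, 4 were lower without mouse 23, 3 without mouse 12, 2 without mice 16 or 21 and 1 without mice 11, 14, 17 or 40. The exception was Gabrd, the delta subunit of extrasynaptic receptors, which had 37.2, 47.5 and 72.2 CPM in CSDS mice and 33.6, 41.8 and 50.1 CPM in CTRL mice. Mouse 1 was the highest of the 19. The LFC of Gabrd was 0.25 ± 0.089 (SE; p = 0.00777), and 0.16 (p = 0.0545) without mouse 1.

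Ion channel lists also had negative medians. Of 24 sodium and calcium channel genes tested, 0 were higher and 3 lower. Cacna1e, the pore of R-type calcium channels, had 416, 523 and 627 CPM in CSDS mice and 532, 578 and 686 CPM in CTRL mice. 6 CSDS libraries lay under the lowest CTRL library and the rest overlapped. Its LFC was -0.23 ± 0.079 (SE; p = 0.00554). Scn3a, a sodium channel more abundant in development, had an LFC of -0.23 ± 0.084 (SE; p = 0.00875), and Cacna1b, the pore of the N-type calcium channels of nerve terminals, of -0.19 ± 0.084 (SE; p = 0.0273). Without mouse 1, Cacna1e and Scn3a passed (p = 0.0131 and 0.0246) and Cacna1b did not (p = 0.0652). With 1 library left out the number lower lay between 2 (without mice 1, 6, 31 or 40) and 7 (without mouse 12), and was 6 without mouse 11 and 5 without mice 16 or 23. The list median was -0.061, -0.029 without mouse 1 and -0.019 with the length offset. Of 33 potassium and HCN channel genes (median LFC -0.051, -0.026 without mouse 1 and -0.014 with the length offset), only Kcnd3, a subunit of A-type potassium channels, passed, with an LFC of -0.12 ± 0.054 (SE; p = 0.0293). When 1 library was omitted, 0 to 4 potassium and HCN channel genes were lower, 0 without mouse 6 and 4 without mice 12 or 16. With the length offset and without mouse 1 together, the medians were 0.00048 for sodium and calcium channels and 0.0042 for potassium and HCN channels.

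A pair of further lists of long genes lay below 0. Of 23 chromatin regulators tested, 0 were higher and 3 lower: Med13l, a part of the Mediator kinase module, with an LFC of -0.18 ± 0.06 (SE; p = 0.00565), Brwd3, with -0.31 ± 0.14 (SE; p = 0.0291), and Atrx, a chromatin remodeler, with -0.18 ± 0.083 (SE; p = 0.0319). Their list held 21 of 23 negative LFCs and a median of -0.08, -0.069 without mouse 1 and -0.016 with the length offset. The number lower was 1 without mouse 1, 2 with the offset and up to 10 without CSDS mouse 12, with 9 without mouse 16, 7 without mouse 23, 6 without mouse 3 and 5 without mice 11, 26 or 36. In the list of BDNF, TrkB and mTOR signaling, Ntrk2, which encodes TrkB, had an LFC of -0.11 ± 0.055 (SE; p = 0.0443), and Rictor, a core part of mTOR complex 2, of -0.18 ± 0.072 (SE; p = 0.0147). With the length offset Ntrk2 was at -0.026 and Rictor at -0.099. The other 22 genes of the list did not pass, and its median was -0.018, -0.0078 without mouse 1 and 0.0019 with the length offset. When 1 library was omitted, 1 to 4 of its genes were lower, 1 without mice 1, 31 or 32 and 4 without mice 11, 12 or 36.

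Genes of the mitochondrial respiratory chain stood on the other side. Of 87 tested members, 11 were higher and 0 lower, against 2.42% higher over all genes, and 81 of 87 had a positive LFC. Summed, these nuclear genes made up between 6965 and 8671 CPM in CSDS libraries (median 8011) and between 6891 and 7950.2 CPM in CTRL libraries (median 7449.9). The median CSDS library lay above the highest CTRL library, and the lowest CSDS library lay near the lowest CTRL library. By complex, the genes higher numbered 2 of 39 in complex I, 0 of 4 in complex II, 2 of 9 in complex III, 5 of 18 in complex IV and 2 of 17 in complex V, the ATP synthase. The list median was 0.094, 0.056 without mouse 1 and 0.041 with the length offset, and 3 members passed under each of the last 2. The count depended on single mice: with 1 library left out it lay between 2, without CSDS mouse 17 or 20, and 28, without CSDS mouse 11. It was 3 to 5 without CSDS mice 1, 3 or 6 or CTRL mice 21, 32, 34 or 36, 7 without CTRL mouse 37, 16 without CSDS mice 12 or 16 or CTRL mouse 23, and 2 without CTRL mice 31 and 34 together. No member was lower in any of these fits. These transcripts are short, with a median of 1495 bases, and the shortest exon bin as a whole had a median LFC of 0.068.

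Atp5h, a stator subunit of the ATP synthase (chromosome 11, 115415689 to 115419962 of GRCm38), led the list. It had 95.5, 111.5 and 131.5 CPM in CSDS mice and 80.8, 100.5 and 106.7 CPM in CTRL mice. The groups overlapped in part. Its LFC was 0.22 ± 0.068 (SE; p = 0.00219), 0.22 without mouse 1 and 0.17 with the length offset (p = 0.00816). Ndufs4, a complex I subunit, had an LFC of 0.14 ± 0.055 (SE; p = 0.0174), and Uqcrfs1, the Rieske iron-sulfur protein of complex III, of 0.11 ± 0.044 (SE; p = 0.0197). The remaining 8 were Ndufv3, Uqcrb, Cox4i1, Atp5j, Cox5a, Cox6c, Cox6a2 and Cox6a1, named because their p was under 0.05, with LFCs from 0.11 for Atp5j to 0.52 for Cox6a2. The 13 protein genes of the mitochondrial genome itself did not show this: 6 were positive, none passed and the median LFC was -0.018.

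Cytosolic ribosomal protein genes, also short, had 81 of 88 positive LFCs. Their median of 0.067 lay at the 0.068 of all expressed genes in the shortest exon bin. Only 1 member passed. This was Rpl7l1, whose protein resembles a core subunit, with an LFC of 0.10 ± 0.049 (SE; p = 0.0448). The list median was 0.024 without mouse 1 and 0.018 with the length offset, and 0 members passed under either. With 1 library left out the number higher lay between 0 (without mice 1, 3, 21, 26, 31, 34 or 36) and 8 (without mouse 11), and was 3 without mice 12 or 23 and 2 without mouse 37. With the offset and without mouse 1 together, the list median was 0.0014. Mouse 1 had the highest ribosomal sum of the 9 CSDS libraries, 9618 CPM against a median of 7991. Over the 40 lists, mouse 1 was the lowest of the 9 CSDS libraries in 17 and the highest in 6.

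**Figure D2:**
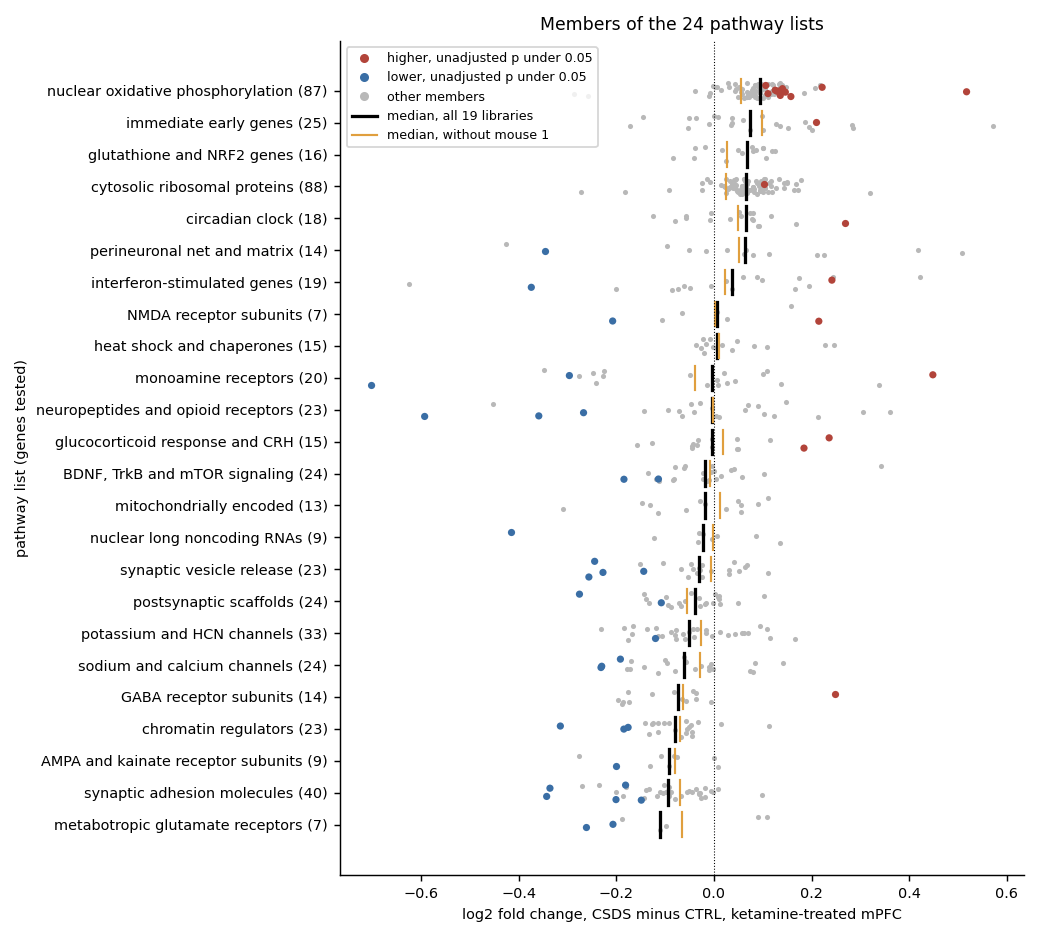
Log2 fold change (CSDS minus CTRL, ketamine-treated mPFC) of each tested member of the 24 pathway lists. Each point is 1 gene, colored where its unadjusted p was under 0.05, with black and orange bars for the list median with all 19 libraries and without mouse 1. The respiratory chain lies at the top with a median of 0.094, and synaptic adhesion and metabotropic glutamate receptors lie at the bottom with medians of -0.093 and -0.11.

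Genes of the stress hormone system showed small differences. Of 15 genes of the glucocorticoid response and corticotropin-releasing hormone (CRH) tested, 2 were higher and 0 lower: Crhr1, the main CRH receptor of the cortex, and Crhbp, which binds and buffers CRH. Crhr1 had 24.6, 33.8 and 36.5 CPM in CSDS mice and 23.2, 28.1 and 34.2 CPM in CTRL mice. Crhbp had 17.3, 20.1 and 24.2 CPM in CSDS mice and 13.5, 16.9 and 20.1 CPM in CTRL mice. In both genes the medians of the groups differed by a few CPM and the ranges overlapped. The LFCs were 0.18 ± 0.08 (SE; p = 0.0264) and 0.24 ± 0.12 (SE; p = 0.0471), and neither passed without mouse 1 (p = 0.0672 and 0.0752). When 1 library was omitted, 2 members passed only without mice 3, 12, 14 or 31, and 0 passed without mice 1, 20 or 32. The list median was -0.0044.

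Receptors for monoamines and peptides included some of the larger differences. Htr7, a serotonin receptor coupled to cyclic AMP (chromosome 19, 35958734 to 36057507 of GRCm38), had 10.3, 16.8 and 29.6 CPM in CSDS mice and 10.2, 13.3 and 19.3 CPM in CTRL mice. The 2 highest mice of the 19 were CSDS mice, and the lowest CSDS mouse lay at the CTRL minimum. Its LFC was 0.45 ± 0.14 (SE; p = 0.0027) and stayed at 0.44 without mouse 1 and 0.42 with the length offset. Adra1a, an adrenergic receptor, had an LFC of -0.30 ± 0.13 (SE; p = 0.0275), with p = 0.0757 without mouse 1. Drd2, the dopamine D2 receptor, had 0.509, 1.06 and 2.27 CPM in CSDS mice and 0.840, 1.62 and 4.74 CPM in CTRL mice, and its LFC of -0.70 ± 0.29 (SE; p = 0.0195) went to -0.46 (p = 0.0953) without CTRL mouse 26. The monoamine list as a whole had 10 positive members of 20.

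Of 23 neuropeptides, their receptors and opioid receptors tested, 0 were higher and 3 lower. The 3 were receptors: Sstr1 for somatostatin, Oprd1 for enkephalins (the delta opioid receptor) and Trhr for thyrotropin-releasing hormone. Sstr1 had 10.1, 12.8 and 18.3 CPM in CSDS mice and 11.8, 17.0 and 21.8 CPM in CTRL mice. Its LFC was -0.36 ± 0.12 (SE; p = 0.00488), that of Oprd1 -0.27 ± 0.10 (SE; p = 0.0118) and that of Trhr -0.59 ± 0.24 (SE; p = 0.0181). Each passed without mouse 1 (p = 0.0112, 0.0304 and 0.0425). The list median was -0.0043, with 11 members above 0 and 12 below.

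Immediate early genes, which neurons transcribe within minutes of activity, had 19 of 25 positive LFCs and a median of 0.073, and 1 passed. Ier5 had 49.5, 59.9 and 71.1 CPM in CSDS mice and 39.4, 51.0 and 66.0 CPM in CTRL mice, with an LFC of 0.21 ± 0.084 (SE; p = 0.0167). Of 18 circadian clock genes (median 0.065) only Nfil3, a repressor of the clock loop, passed, at 0.27 ± 0.10 (SE; p = 0.0142). Interferon-stimulated genes had 1 on each side, Lgals3bp at 0.24 ± 0.12 (SE; p = 0.0456) and Trim30a at -0.37 ± 0.18 (SE; p = 0.0476), with a list median of 0.038. In the matrix list (median 0.064), Mmp16, a membrane-bound metalloproteinase, had 17.9, 30.8 and 36.3 CPM in CSDS mice and 31.1, 38.2 and 46.8 CPM in CTRL mice. 5 CSDS libraries lay under the lowest CTRL library, and the other CSDS libraries lay within the CTRL range. Its LFC was -0.35 ± 0.10 (SE; p = 0.00196), -0.28 without mouse 1 and -0.32 with the length offset. Kcnq1ot1, a nuclear antisense RNA of an imprinted region, had 20.3, 28.2 and 39.1 CPM in CSDS mice and 27.5, 40.5 and 53.7 CPM in CTRL mice, with an LFC of -0.42 ± 0.14 (SE; p = 0.00369). The strand setting of the counting is not given, so its reads cannot be told apart from those of the overlapping Kcnq1. It was the 1 member of 9 nuclear long noncoding RNAs that passed. No member of the heat shock and chaperone list or of the glutathione and NRF2 list passed, with medians of 0.0066 and 0.068.

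Cell type markers gave no list with a majority of members at the unadjusted threshold. Totals of the broad neuronal lists were nearly level. The excitatory neuron list summed to a median of 7945 CPM in CSDS and 7867 CPM in CTRL libraries. The inhibitory interneuron list summed to 1569 and 1532 CPM. Slc17a7 and Camk2a, the defining excitatory markers, had LFCs of -0.0033 ± 0.06 and -0.018 ± 0.076 (SE), and Gad1 and Gad2, which make GABA, 0.029 ± 0.058 and -0.067 ± 0.076. Deep-layer markers had a median LFC of -0.10, and -0.036 without mouse 1, whose sum of 372 CPM was the lowest of the 19. The deep-layer factors Fezf2 and Tle4 had -0.14 ± 0.18 and -0.11 ± 0.15. Deep-layer sums had medians of 634 CPM in CSDS and 738 CPM in CTRL libraries. Superficial-layer sums went the other way, at 940 and 808 CPM, with a median LFC of 0.048, and 0.018 without mouse 1. The ranges of both sums overlapped between groups. Of the superficial-layer markers, Cux2 had 0.048 ± 0.14 and Rasgrf2 0.0057 ± 0.084, while Rspo1, a secreted enhancer of Wnt signaling, had 5.03, 9.49 and 13.4 CPM in CSDS mice and 4.26, 6.61 and 10.2 CPM in CTRL mice and an LFC of 0.49 ± 0.18 (SE; p = 0.0111).

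Markers of myelinating oligodendrocytes varied more between mice than the neuronal markers did. Their 17 genes summed to between 656 and 7070.2 CPM in CSDS and between 735 and 4034 CPM in CTRL libraries. All 17 had a positive LFC with a median of 0.43, and none passed even the unadjusted threshold. Mbp, myelin basic protein, had 282, 1133 and 2896 CPM in CSDS mice and 310.4, 767 and 1658 CPM in CTRL mice, with an LFC of 0.44 ± 0.39 (SE; p = 0.268). When single libraries were left out, the list median lay between 0.13 and 0.59, the lowest without mouse 6. Precursors of these cells had a median LFC of 0.061, with Pdgfra at 0.0093 ± 0.11 and Cspg4 at 0.015 ± 0.092.

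Of 14 microglial markers, 11 had a positive LFC with a list median of 0.10, and the 1 that passed went the other way. This was Aif1, the microglial protein IBA1, with 5.46, 8.12 and 11.2 CPM in CSDS mice and 8.12, 10.2 and 15.3 CPM in CTRL mice and an LFC of -0.43 ± 0.14 (SE; p = 0.00492), whereas the defining markers Cx3cr1 and P2ry12 had 0.13 ± 0.087 and -0.022 ± 0.12. 4 CSDS mice lay under every CTRL mouse, 3 of them at 5.64 CPM or less, and the other 5 lay within the CTRL range. Aif1 was still lower without mouse 1 (LFC -0.49, p = 0.00187). Astrocyte markers had a median LFC of 0.061 (Aqp4 0.012 ± 0.23, Aldh1l1 0.12 ± 0.08). Endothelial markers had a median of 0.077 (Cldn5 0.078 ± 0.14, Pecam1 0.30 ± 0.40), mural cell markers of -0.0034 (Pdgfrb -0.0044 ± 0.12, Acta2 -0.16 ± 0.44) and meningeal fibroblast markers of 0.15 (Col1a1 0.076 ± 0.32, Col1a2 0.17 ± 0.29), with no member at the threshold. Blood contributed little: the hemoglobin genes Hba-a1 and Hbb-bs had medians of 40.5 and 50.3 CPM in CSDS and 40.6 and 51.6 CPM in CTRL mice, and the lymphocyte markers Cd3e and Cd79a reached at most 0.552 and 0.392 CPM.

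The markers with the largest LFCs came from structures that border the cortex and rested mainly on 3 CTRL mice. Of 9 choroid plexus genes tested, 0 were higher and 3 lower, Ttr at -2.94 ± 0.98 (SE; p = 0.00463), Folr1 at -1.72 ± 0.83 (SE; p = 0.0438) and Prlr at -0.97 ± 0.46 (SE; p = 0.0424). Without mice 31 and 34 the LFC of Ttr was 0.13 and that of Folr1 -1.10 (p = 0.216), and without mouse 26, at 7.83 CPM, that of Prlr was -0.059. The summed list lay between 5.82 and 13.4 CPM in CSDS and between 6.38 and 34.7 CPM in CTRL mice. Of 7 ependymal genes tested, 0 were higher and 3 lower: Tmem212, Ccdc153 and Dnah11, genes of motile cilia or the cells that carry them. All 3 were highest in mouse 26, at 1.75, 2.22 and 1.96 CPM, and none passed without it (p = 0.168, 0.187 and 0.291), while Foxj1, the master factor of motile cilia, had an LFC of -0.15 ± 0.27. The striatal list had a median LFC of -0.0086, with 5 of 11 members above 0 and 0 higher and 2 lower at the threshold. Of its members, Pde10a had 66.1, 73.8 and 91.3 CPM in CSDS mice and 72.7, 85.97 and 94.7 CPM in CTRL mice and an LFC of -0.17 ± 0.067 (SE; p = 0.0168), and Drd1 an LFC of -0.24 ± 0.20.

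**Figure D3:**
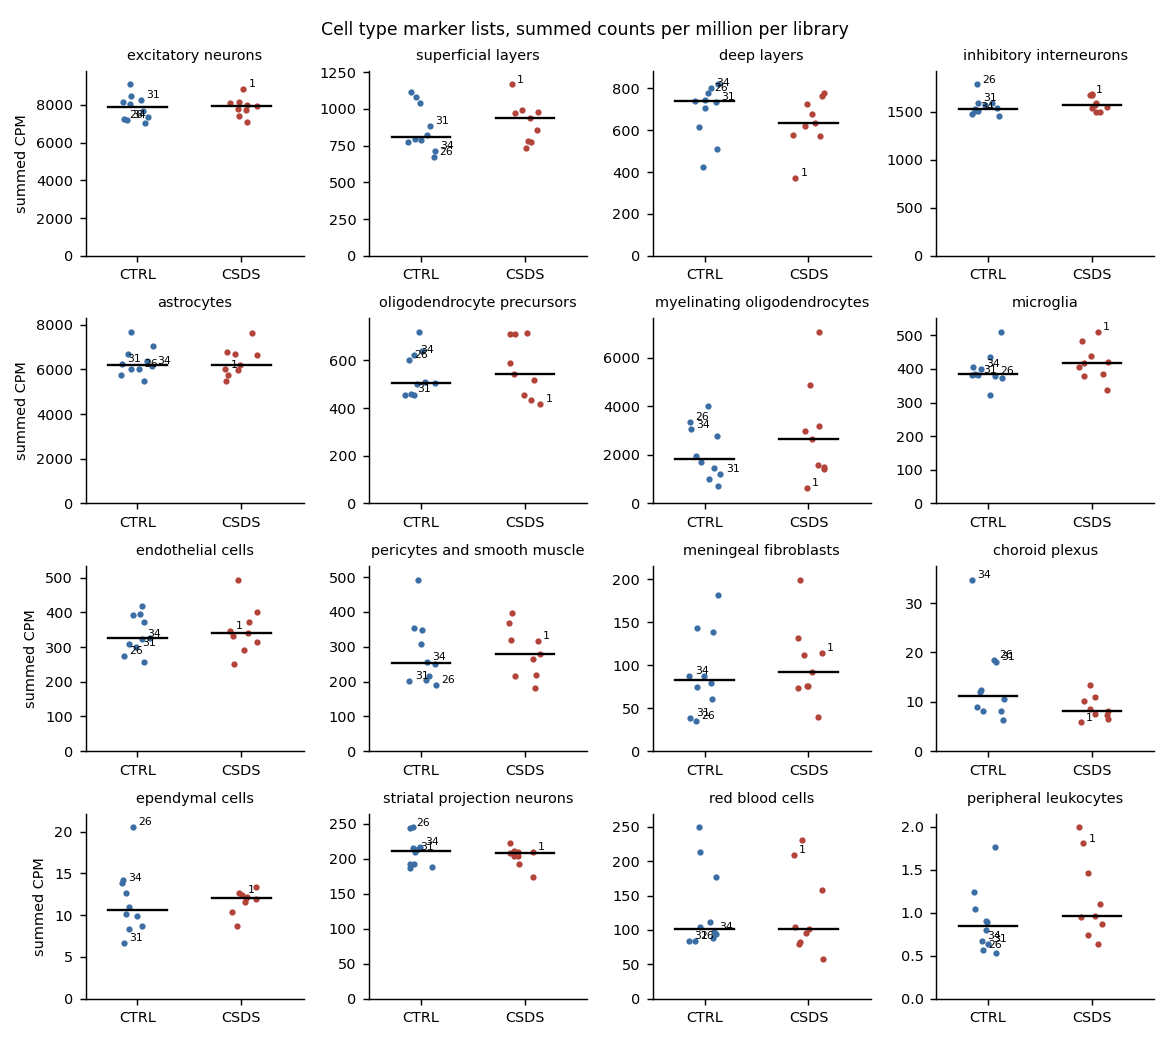
Summed CPM of the members of each of the 16 cell type lists, with 1 point per library, CTRL in blue and CSDS in red, and black lines for medians. Mice 1, 26, 31 and 34 are numbered. The excitatory neuron and interneuron lists are nearly level between groups. Median sums in CSDS and CTRL mice are 940 and 808 CPM for superficial layers and 634 and 738 CPM for deep layers. Myelin genes spread from 656 to 7070 CPM, and the highest choroid plexus and ependymal sums belong to CTRL mice 34 and 26.

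Among genes with a symbol and a mean of at least 1 CPM, the 20 of smallest p comprised 8 higher and 12 lower in CSDS mice, all at an adjusted p of 0.830. In none of them, nor in any other gene named here, were the CPM values of the groups fully separated. Cd274, which encodes the immune checkpoint ligand PD-L1 (chromosome 19, 29367455 to 29388095), had 2.15, 2.55 and 3.08 CPM in CSDS mice and 2.77, 3.46 and 4.92 CPM in CTRL mice. Only 3 CSDS mice exceeded the lowest CTRL mouse. Its LFC was -0.48 ± 0.12 (SE; p = 0.000357), its exact permutation p 0.000379, and without mouse 1 it kept its size (LFC -0.47). Pard6b, a polarity protein, had 4.27, 4.56 and 4.91 CPM in CSDS mice and 4.62, 5.77 and 6.35 CPM in CTRL mice, with an LFC of -0.29 ± 0.079 (SE; p = 0.000762). Pign, an enzyme of GPI anchor synthesis, had an LFC of -0.31 ± 0.086 (SE; p = 0.000828), Thsd4, a matrix protein of microfibrils, of -0.57 ± 0.17 (SE; p = 0.00142), and Med23, a Mediator subunit, of -0.16 ± 0.046 (SE; p = 0.00151). Mamld1 had 45.4, 49.9 and 52.5 CPM in CSDS mice and 50.2, 54.7 and 59.4 CPM in CTRL mice, with a small but tight LFC of -0.15 ± 0.044 (SE; p = 0.00181). On the higher side, Fam189a2 had 11.0, 12.0 and 13.7 CPM in CSDS mice and 8.00, 10.1 and 12.4 CPM in CTRL mice and an LFC of 0.27 ± 0.074 (SE; p = 0.000667), Tstd2 an LFC of 0.18 ± 0.051 (SE; p = 0.00101) and the zinc finger gene Zbtb8a of 0.36 ± 0.11 (SE; p = 0.00134).

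Of the remaining genes of the 20, Hydin, a gene of motile cilia, had an LFC of -0.70 ± 0.21 (SE; p = 0.00166), and -0.60 without mouse 26. Glp1r, the receptor of the gut and brain peptide GLP-1, had an LFC of -1.53 ± 0.46 (SE; p = 0.00171), but mouse 26 held 25.7 CPM and no other CTRL mouse more than 3.57. Without it the LFC was -0.46 (p = 0.133). Gm44104, Gm26871 and the vomeronasal receptor gene Vmn2r87 were lower (LFC -0.82, -0.47 and -0.46), and Gm44104 had only 0.778 and 1.17 CPM in the median mouse of each group.

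**Figure D4:**
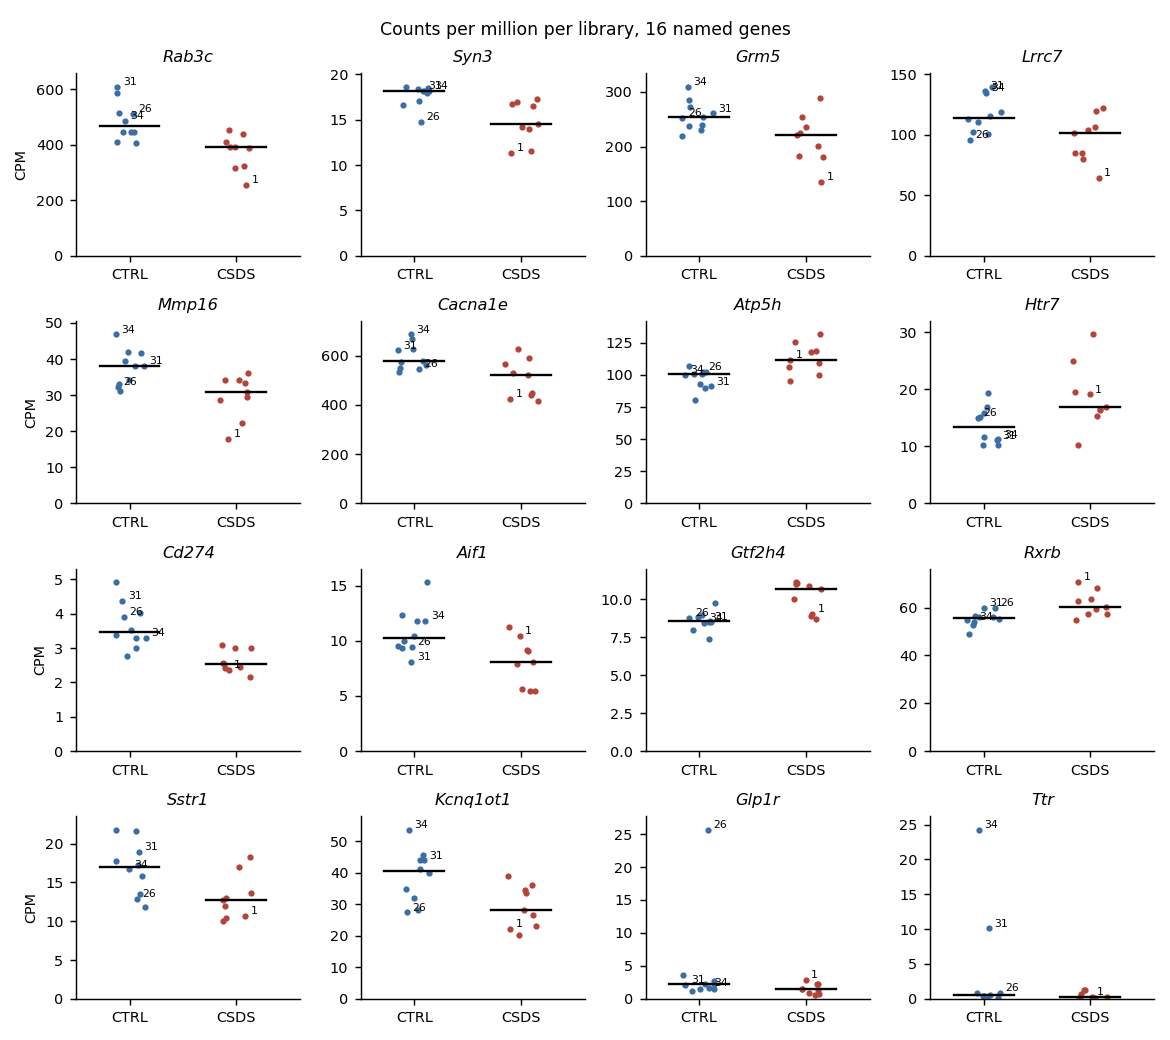
CPM per library of 16 named genes in ketamine-treated mPFC, with 1 point per mouse, CTRL in blue and CSDS in red, and black lines for medians. Mice 1, 26, 31 and 34 are numbered. The groups are shifted but overlap in every panel, and the differences of Glp1r and Ttr rest on mice 26, 31 and 34.

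5 of the 20 genes lay close together. H2-T22, H2-T23, Gtf2h4, Fkbpl and Rxrb all fall within 2.01 Mb of chromosome 17 of GRCm38, from 34031812 to 36042747, in the major histocompatibility complex, as does Aif1. This span was singled out after the values were seen. It was drawn around genes already chosen for a small p, so no share of its genes is read as a result. Rxrb, a nuclear receptor partner, had 54.6, 60.1 and 70.7 CPM in CSDS mice and 48.9, 55.7 and 59.8 CPM in CTRL mice, and Gtf2h4, a subunit of the general transcription factor TFIIH, had 8.72, 10.7 and 11.1 CPM in CSDS mice and 7.36, 8.55 and 9.78 CPM in CTRL mice. Both overlapped between groups, and the LFCs were 0.15 ± 0.045 (SE; p = 0.0016) and 0.24 ± 0.069 (SE; p = 0.000993). Fkbpl had an LFC of 0.23 ± 0.069 (SE; p = 0.00172). The class I genes differed from these in form: H2-T22 lay between 8.65 and 10.2 CPM in CSDS mice 3, 6, 11, 12 and 20 and at 1.02 CPM or less in the other 14 mice. H2-T23 was also highest in those 5 mice, between 6.59 and 9.19 CPM. Across CSDS mice 1, 3, 6, 11, 12, 14, 16, 17 and 20, in this order, Gtf2h4 had 9.03, 11.1, 10.9, 8.91, 11.1, 10.7, 8.72, 9.99 and 11.0 CPM and Aif1 10.4, 7.89, 8.12, 9.08, 5.64, 11.2, 9.14, 5.46 and 5.46 CPM. Class I genes are alike in sequence, so reads could have been split between them.

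Whether the stress effect differed between ketamine-treated and saline-treated mPFC was tested with the interaction of stress and ketamine. No gene passed after adjustment, and at the unadjusted threshold 1539 of 28993 genes (5.31%) differed. The stress effect was more positive after ketamine in 705 (2.43%) and more negative in 834 (2.88%). The respiratory chain list stood out from these shares: 25 of 87 members had a more positive stress effect after ketamine and 0 a more negative one. Their median LFC was 0.094 with ketamine and -0.059 with saline, which are different mice. Without mouse 1, 7 of 87 passed, and the median difference went from 0.15 to 0.11. Atp5h, named for its small p with ketamine, which favors a small interaction p, had an interaction LFC of 0.28 ± 0.095 (SE; p = 0.0045), from -0.063 with saline. Ribosomal protein genes had 8 of 88 more positive and 1 without mouse 1. Synaptic adhesion molecules had 4 of 40 more negative, postsynaptic scaffolds 4 of 24, and sodium and calcium channels 3 of 24, and without mouse 1 each had 2.

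The direction of the length trend also differed between treatments: with saline the median LFC went from -0.029 in the shortest bin of genes to 0.022 in the longest, opposite to ketamine. The interaction went from 0.097 in the shortest bin to -0.068 in the longest, and in GC content from -0.064 in the lowest bin to 0.064 in the highest. Without mouse 1 these were 0.053 and -0.056 for length, with 170 short genes more positive falling to 54, and -0.05 and 0.032 for GC content. The part of length and GC content in the list values of the interaction was not tested. Of the genes described above, the interaction passed the unadjusted threshold in, among others, Syn3 (-0.32 ± 0.11, p = 0.0045), Mmp16 (-0.40 ± 0.15, p = 0.0082), Sstr1 (-0.45 ± 0.17, p = 0.0108) and Kcnq1ot1 (-0.59 ± 0.19, p = 0.00329). These genes were named for a small p with ketamine, and that stress difference enters the interaction. Their small interaction p was thus favored in advance and is not separate evidence. The 5 genes of smallest interaction p were Gm26871, Gm21887, Dsn1, Gm13226 and Mamld1. Dsn1, a kinetochore protein, had 3.11, 3.56 and 4.43 CPM in CSDS mice and 2.28, 2.84 and 3.91 CPM in CTRL mice after ketamine, with an LFC of 0.32 ± 0.11 against -0.31 ± 0.11 with saline (interaction p = 0.000285). Gm21887 had 0.62 against -0.74, Gm13226 0.44 against -0.57, Gm26871 -0.47 against 0.32 and Mamld1 -0.15 against 0.092. By contrast Aif1 was lower in both treatments (-0.43 and -0.33, interaction p = 0.627), and myelin markers had medians of 0.43 with ketamine and -0.18 with saline with no member passing the interaction.

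The ventral hippocampus (vHipp) of ketamine-treated mice gave the second comparison, and since it came from the same 19 animals and 1 further CSDS mouse its values are set beside those of the mPFC. The stress effect differed between regions at an unadjusted p under 0.05 in 1294 of 31534 genes (4.1%), and none passed after adjustment. Medians in vHipp had the sign of the mPFC for the respiratory chain (0.082), ribosomal proteins (0.069), synaptic adhesion (-0.052), metabotropic glutamate receptors (-0.19), sodium and calcium channels (-0.078) and chromatin regulators (-0.086). The length trend was present in vHipp too, from 0.044 in the shortest bin to -0.034 in the longest, and no length offset was fitted there. Lists of opposite sign included superficial layers (0.048 in mPFC and -0.14 in vHipp) and the circadian clock (0.065 and -0.035). The genes printed next were named for a small p in the mPFC comparison, whose values enter this difference. A small p for the difference and weaker or opposite vHipp values were thus favored in advance. Of the named genes, Zbtb8a had the smallest p for a difference between regions, at 0.36 ± 0.11 in mPFC and -0.36 ± 0.11 in vHipp (difference 0.72, unadjusted p = 7.88e-06, and 0.000217 with the mouse as a block). Next in order were Rxrb at -0.058 in vHipp (difference p = 0.00184), Tstd2 at -0.042 (p = 0.00251), Gabrd at -0.34 (p = 0.00444) and Rspo1 at -0.35 (p = 0.00492), each opposite in sign to the mPFC. Cd274 had 0.15 in vHipp (p = 0.00671). Syn3, Med23, Scn3a and Htr7 had the sign of the mPFC, at -0.42, -0.20, -0.28 and 0.36, and their difference between regions did not pass (p = 0.424, 0.515, 0.744 and 0.654). Mitochondrially encoded genes had a median LFC of 0.27 in vHipp and myelin genes of -0.043.

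**Figure D5:**
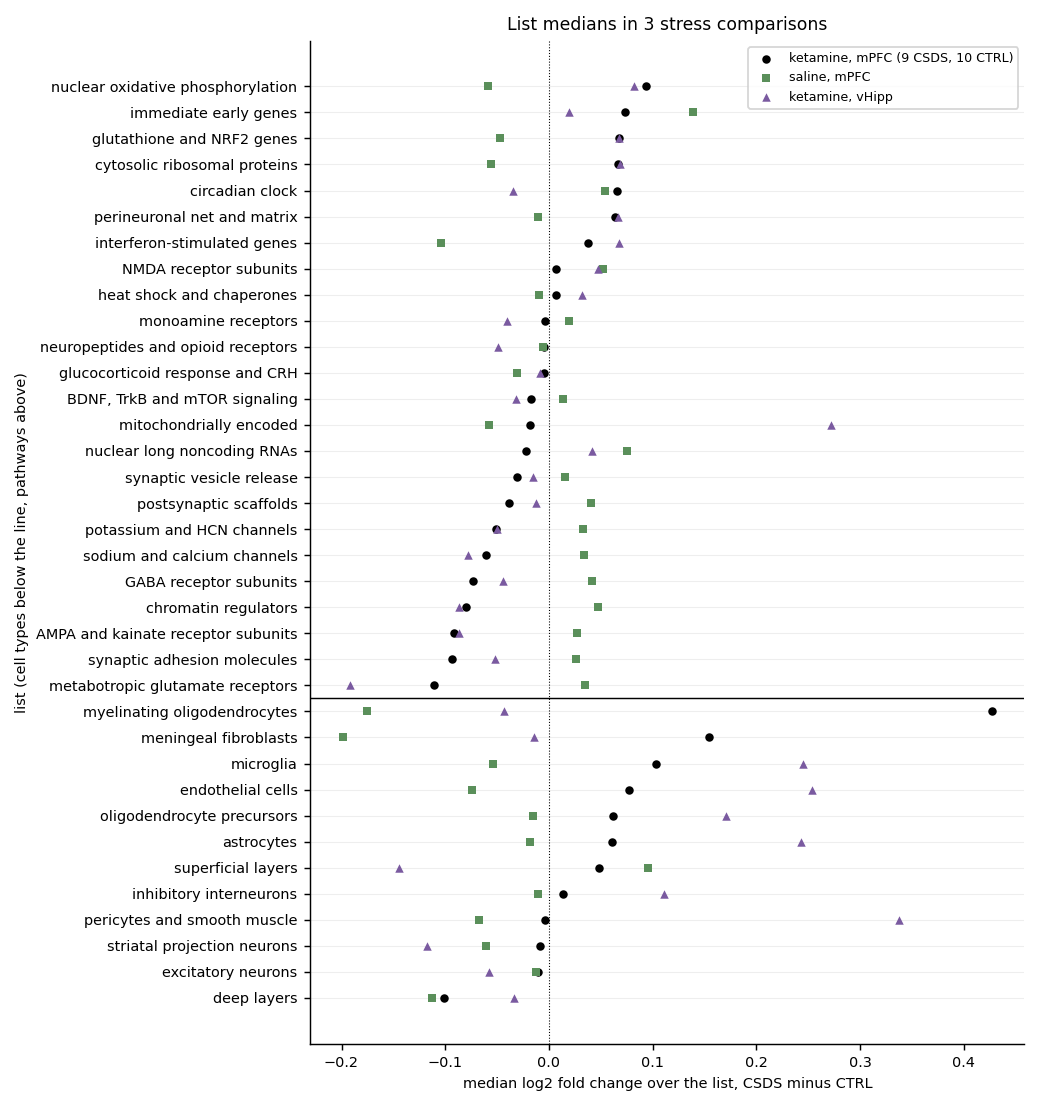
Median log2 fold change (CSDS minus CTRL) of 36 lists in ketamine-treated mPFC, saline-treated mPFC and ketamine-treated vHipp. Choroid plexus, ependymal, red blood cell and leukocyte lists are left out, since they rest on few counts or on single mice. The respiratory chain lies at 0.094 with ketamine and -0.059 with saline in mPFC, and myelin genes lie at 0.43 and -0.18.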

How the data were processed

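RNA from mPFC and vHipp punches of male CD-1 mice was sequenced from poly(A)-selected stranded libraries, and the study removed samples of low RNA integrity. The authors deposited whole-number counts of reads per gene for all 79 libraries in 1 table, not normalized. Reads were demultiplexed with bcl2fastq 2.20.0.422 and CASAVA and the genome build is GRCm38 per the labels and the study's methods. The aligner, counter and strand setting are not given in the sources used here. Symbols, positions and exon lengths came from the GENCODE annotation of GRCm38 and the deposited table, and 55144 of 55471 gene identifiers matched a symbol.

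The 39 mPFC libraries were fitted together in 4 groups with edgeR 4.0.16 in R 4.3.3 (TMM scaling, quasi-likelihood test, Benjamini-Hochberg adjustment over all genes, threshold 0.05) without a covariate. Genes with a total count above 10 and detected in more than 3 libraries were kept (28993 genes). The study's model has a term for the social group of the mice and leaves out 1 library, and the labels name neither, so all libraries were kept and 5 sets of consecutive mouse numbers served only as an alternative. The interaction of stress and ketamine came from the same fit, and the difference between regions from a fit of all libraries. CPM are TMM-scaled. The exact permutation tests were two-sided on log2(CPM + 0.5) over 92378 regroupings of the 19 libraries. Total counts of the ketamine libraries set the precision, and their difference between CSDS and CTRL mice did not pass (exact permutation p = 0.0664). Scripts were tested on simulated counts.

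Members and gene lists were chosen with earlier results of these data known. Named genes are the 20 of smallest p with a symbol and a mean of at least 1 CPM, up to 3 members of each list at p under 0.05, the first 2 genes of each cell type list, the 5 of smallest interaction p, and H2-T22 and H2-T23. Cntn1, Nrxn3, Pclo, 8 genes of the respiratory chain, and the span on chromosome 17 were chosen after their values were seen. A few genes that the rule names are not reported here. Mouse numbers pair the regions, since the labels give the same mouse in both regions for all but 1 mouse, of which only vHipp was analysed; over 39 pairs the median correlation of deviations was 0.253 (lowest -0.059), against -0.0022 for other pairs. Alternatives were DESeq2 1.42.0, limma-voom 3.58.1, RLE scaling, other filters, a covariate for 5 sets of mouse numbers, only the 2 ketamine groups, and each library left out. The length offset, in 20 bins of exon length, and the fits without mice 31 and 34 were added after seeing the data.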

Additional observations from a re-analysis of the deposited data

Results flagged for a closer look

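In 282 groups of values, 1 value lay far from the rest of its group, by Dixon's criterion, in 26, where chance flags about 1 in 20 groups, or 14.1. All values are CPM or summed CPM unless named otherwise, and none was explained by a test.

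Among CSDS mice, mouse 1 stood apart in the length index (-0.46) and in 5 list sums: low in deep-layer markers (372), synaptic adhesion molecules (6167), potassium and HCN channels (4155) and monoamine receptors (261), and high in neuropeptides and opioid receptors (1150.1). Mouse 3 was high in Pecam1 (32.6), Col1a1 (23.9) and the interferon-stimulated list (128.1), that is, in vascular and fibroblast genes and interferon targets together. Mouse 6 was high in Prlr (2.31) and Foxj1 (3.51), and mouse 17 in the T cell gene Cd3e (0.552).

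Among CTRL mice, mouse 26 stood apart most often. It was high in Glp1r (25.7), Prlr (7.83), the cilia-related genes Tmem212 (1.75), Ccdc153 (2.22), Dnah11 (1.96) and Foxj1 (5.31), and in Gad2 (248) and the interneuron sum (1785), and low in Syn3 (14.8). Mouse 34 was high in Ttr (24.3) and in the choroid plexus sum (34.7), mouse 21 in Acta2 (112.8) and mouse 23 in Grin2c (70.0) and in total counts (34135805 reads).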

How the results depend on the processing

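No gene passed the adjusted threshold under edgeR, limma-voom or DESeq2 without a covariate, nor with any library left out, and 2 did, Nexmif and Gh, when DESeq2 also held the 5 sets of mouse numbers. At the unadjusted threshold the 702 higher and 979 lower genes became 423 and 603 with filterByExpr, and the 1539 of the interaction became 914; fewer genes were tested there. The length offset without mouse 1 left 401 higher genes, and the fit without mice 31 and 34 left 433. With the covariate for the 5 sets of mouse numbers the counts rose. There, edgeR gave 959 higher and 1448 lower genes and 2170 for the interaction, and DESeq2 gave 2032 genes in place of 1316. Leaving out single libraries gave 419 to 970 higher and 808 to 1370 lower genes, the fewest without CSDS mouse 1 and the most without CSDS mouse 11. With the mouse as a replicate block, the mPFC minus vHipp difference counted 966 genes in place of 1294, and the block took none of the region differences printed above past the threshold in either direction. The LFC of Ttr reversed to 0.13 without mice 31 and 34. Of 40 list medians, 0 changed sign with DESeq2 or RLE, 2 with only the ketamine groups, 4 with the length offset and 1 to 5 when 1 library was left out. Counts below about 1 CPM limit the choroid plexus, ependymal and leukocyte lists.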
